A study of Mus musculus with 36 samples.

Results

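Acyl-CoA thioesterases (Acot genes) were taken by symbol from the deposited gene counts of mouse liver, which gave 10 members of 24421 genes: Acot1, Acot2, Acot3, Acot4, Acot7, Acot8, Acot9, Acot11, Acot12 and Acot13. All 10 passed the filter on low counts in every comparison. The counts also list Acot5, Acot6 and Acot10, with 0 to 2 reads, 2 to 37 reads and 0 to 2 reads per library, and these 3 were not counted as members. Liver RNA came from 36 male C57BL/6J mice that were bought at 7 weeks of age and all fed for 12 weeks with CDAHFD, a fatty diet of defined amino acids without choline that brings on features of steatohepatitis. For 2 more weeks 20 of them ate a high-fat diet (HFD) and were given a weekly subcutaneous dose of 4.3 mg/kg Fc in 10 mice or 5 mg/kg Fc(mML1)B3 in 10 mice. The other 16 ate a standard diet for 10 days and were given those doses on days 1, 4 and 7, 9 mice with Fc and 7 with Fc(mML1)B3. Fc(mML1)B3 is an antibody Fc fragment carrying a macrocyclic peptide that binds and activates Met, the receptor of hepatocyte growth factor, and Fc without the peptide was the control. The questions were which thioesterase RNAs differed between Fc(mML1)B3 and Fc mice under each diet, and whether that difference changed with the diet.

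Acyl-CoA thioesterases split fatty acyl-CoA into a free fatty acid and coenzyme A, the reverse of what acyl-CoA synthetases do, and so set how much activated fatty acid a compartment of the cell holds. The family has 2 unrelated kinds of enzyme. The type I enzymes (Acot1 to Acot6) are close relatives encoded side by side and differ in where they sit: Acot1 in the cytosol, Acot2 in mitochondria, and Acot3 to Acot6 in or near peroxisomes. The type II enzymes share a different fold and are scattered over the genome: Acot7 in the cytosol, Acot8 in peroxisomes, Acot9 in mitochondria, Acot11 and Acot12 with a lipid-binding START domain, and Acot13 (also called Them2) on mitochondria, where it partners with a phosphatidylcholine transfer protein. In liver, fasting and the fatty acid receptor PPARalpha are known to raise the type I members.

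Libraries held 14949035 to 28466853 counted reads (median 23558194.5). Values per gene are given as CPM, counts scaled to a common library size with TMM factors over all 36 libraries. A gene was called when edgeR's quasi-likelihood F-test within a diet gave a p under 0.05 after Benjamini-Hochberg adjustment over all genes tested. The summed level of 7 hepatocyte markers was 77100 to 152000 CPM in every library, and that of 7 macrophage markers 724 to 2090 CPM. In bulk liver RNA, fewer cells of a type and less RNA per cell cannot be told apart. Each library carries an S number in its name, and under the HFD the Fc libraries belong to a different run of S numbers than the Fc(mML1)B3 libraries, so that this run and the protein cannot be told apart there. Diet likewise cannot be told apart from experiment, dosing schedule and run of S numbers. The labels give 1 library per mouse and no pooling.

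The type I genes form a cluster of 6 genes over 122 kb of chromosome 12 (mm10, 83987861 to 84109783), in the order Acot2, Acot1, Acot4, Acot3, Acot5 and Acot6. Their sequences show why reads from them are hard to tell apart. The coding sequences of Acot1 and Acot2 were identical at 95.3% of 1236 aligned bases, those of Acot1 and Acot3 at 83.9% of 1257, and those of Acot3 and Acot4 at 74.2% of 1262 (GENCODE M21, GRCm38). The 100-base window below is the stretch where Acot3 and Acot4 are most alike. It holds the same letters in Acot1, Acot3 and Acot4, from coding base 118 in Acot3 and 85 in Acot1 and Acot4. Capitals mark bases of Acot2 that differ from Acot3.
Acot3: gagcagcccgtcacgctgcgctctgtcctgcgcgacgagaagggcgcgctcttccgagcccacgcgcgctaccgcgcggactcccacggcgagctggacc
Acot1: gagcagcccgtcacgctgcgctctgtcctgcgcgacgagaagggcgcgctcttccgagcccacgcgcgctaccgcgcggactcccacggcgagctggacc
Acot4: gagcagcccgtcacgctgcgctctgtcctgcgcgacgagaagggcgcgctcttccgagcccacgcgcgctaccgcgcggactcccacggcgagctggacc
Acot2: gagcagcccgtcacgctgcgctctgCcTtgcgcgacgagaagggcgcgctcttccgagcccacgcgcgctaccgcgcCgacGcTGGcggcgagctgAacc
A read pair that lies wholly in such a stretch aligns to several genes and was not counted. Elsewhere the genes differ enough for a read to be placed. The 100-base window where Acot3 differs most from the other 3 begins at coding base 803 of Acot3, and capitals again mark bases that differ from Acot3.
Acot3: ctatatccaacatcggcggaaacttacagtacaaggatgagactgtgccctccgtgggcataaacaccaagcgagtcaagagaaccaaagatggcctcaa
Acot1: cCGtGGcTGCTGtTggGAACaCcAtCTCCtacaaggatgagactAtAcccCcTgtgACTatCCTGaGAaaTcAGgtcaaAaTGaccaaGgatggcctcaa
Acot2: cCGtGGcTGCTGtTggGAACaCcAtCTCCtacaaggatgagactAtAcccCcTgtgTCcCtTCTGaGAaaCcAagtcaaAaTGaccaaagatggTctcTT
Acot4: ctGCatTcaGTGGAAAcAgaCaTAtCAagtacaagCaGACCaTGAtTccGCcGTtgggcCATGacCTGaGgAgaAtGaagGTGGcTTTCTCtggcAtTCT
In this window Acot1, Acot2 and Acot4 differed from Acot3 at 40, 41 and 54 of 100 bases. Over all 100-base windows of the annotated transcripts, the share also found in a transcript of another gene was 17.1% for Acot2, 13.8% for Acot3, 12.4% for Acot1 and 0.336% for Acot4. It was 0.705% for Acot9, shared with Acot10, and 0 for each of the other 5 members. Windows were pooled over every GENCODE transcript of a gene, 3853 for Acot1 and 6551 for Acot4. The counted exons of these genes have only 1558 and 2325 bases. Within the counted exons the shares were not measured, may be higher and may rank the genes differently. The counts of Acot1, Acot2 and Acot3 therefore rest on the part of each gene that is its own, and their levels may be understated.

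The 5′ flanks are shown for Acot1, Acot3 and Acot4, the cluster members called between Fc(mML1)B3 and Fc mice (RefSeq, GRCm38.p6, 250 bases before the annotated start, all on the + strand). RefSeq windows were found for 9 of the 10 members, all but Acot13. Motifs were searched on both strands, and capitals mark matches.
Acot1 chr12:84009252-84009501: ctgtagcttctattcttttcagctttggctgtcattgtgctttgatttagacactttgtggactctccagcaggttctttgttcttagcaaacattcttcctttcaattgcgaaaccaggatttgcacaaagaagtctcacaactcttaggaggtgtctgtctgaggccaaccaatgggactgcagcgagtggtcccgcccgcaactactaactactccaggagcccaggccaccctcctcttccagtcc
Acot4 chr12:84038129-84038378: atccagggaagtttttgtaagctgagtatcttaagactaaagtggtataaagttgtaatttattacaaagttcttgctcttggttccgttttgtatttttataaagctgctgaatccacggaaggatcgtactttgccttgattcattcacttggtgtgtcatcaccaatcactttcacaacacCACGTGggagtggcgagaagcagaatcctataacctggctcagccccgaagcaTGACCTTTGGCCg
Acot3 chr12:84051901-84052150: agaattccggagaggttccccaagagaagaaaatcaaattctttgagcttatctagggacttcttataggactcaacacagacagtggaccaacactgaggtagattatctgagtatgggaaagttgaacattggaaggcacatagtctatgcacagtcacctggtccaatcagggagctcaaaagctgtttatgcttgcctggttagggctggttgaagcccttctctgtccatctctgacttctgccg
The Acot4 flank holds CACGTG, the E-box that CLOCK and BMAL1 as well as other factors can bind, 66 to 61 bases before the start. It also holds TGACCTTTGGCC, 13 to 2 bases before the start. On the reverse strand this reads GGNCA, any base, AGGNCA, a loose direct repeat of the kind bound by PPARalpha with RXR and by HNF4alpha. CACGTG stood in 6.02% of 32851 RefSeq windows of this length and the loose repeat in 0.694%. Among the 9 members, CACGTG was also in the flank of 1 of the Acot11 starts, and the loose repeat in no other member. The strict repeat, AGGTCA, any base, AGGTCA, which is always also a loose one and stood in 0.0335% of windows, and TTATGNAA, the D-box read by DBP, in 3.07%, were in no member's flank. A match is a description of letters only.

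Per length of exonic sequence (RPKM), the type II members Acot13 and Acot12 were the most abundant thioesterase RNAs in every group. Acot13 was at 118 ± 18.7 RPKM (SD, n = 10) in Fc mice under the HFD, and it exceeded Acot12 in all 36 mice. Acot12, an acetyl-CoA hydrolase of the cytosol, was at 30.5 ± 5.07 RPKM in the same mice and exceeded the next gene in each group in all 36. Acot13 alone made up 44.9% to 54.0% of the summed RPKM of the 10 members in the group means.

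Below them, Acot1, Acot3, Acot4, Acot7, Acot8 and Acot9 lay close together, and their order changed between groups. In Fc mice under the HFD, Acot7 at 13.4 ± 2.44 RPKM exceeded Acot3 at 12.8 ± 5.67 RPKM in only 6 of 10 mice, and Acot4 exceeded Acot8 in 4 of 10, so that these neighbours did not separate. Acot3 stood at position 4 of 10 in Fc mice under the HFD and at position 9, with 1.60 ± 1.06 RPKM (SD, n = 9), in Fc mice fed the standard diet. Acot11, a thioesterase best known from brown fat, was last in every group, at 0.731 to 1.12 RPKM in the group means. The sum of the 10 members was 217 ± 28.4 RPKM in Fc mice and 217 ± 25.6 in Fc(mML1)B3 mice under the HFD (SD, n = 10 each). On the standard diet it was 154 ± 12.5 (SD, n = 9) and 185 ± 16.5 (SD, n = 7).

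**Figure D1:**
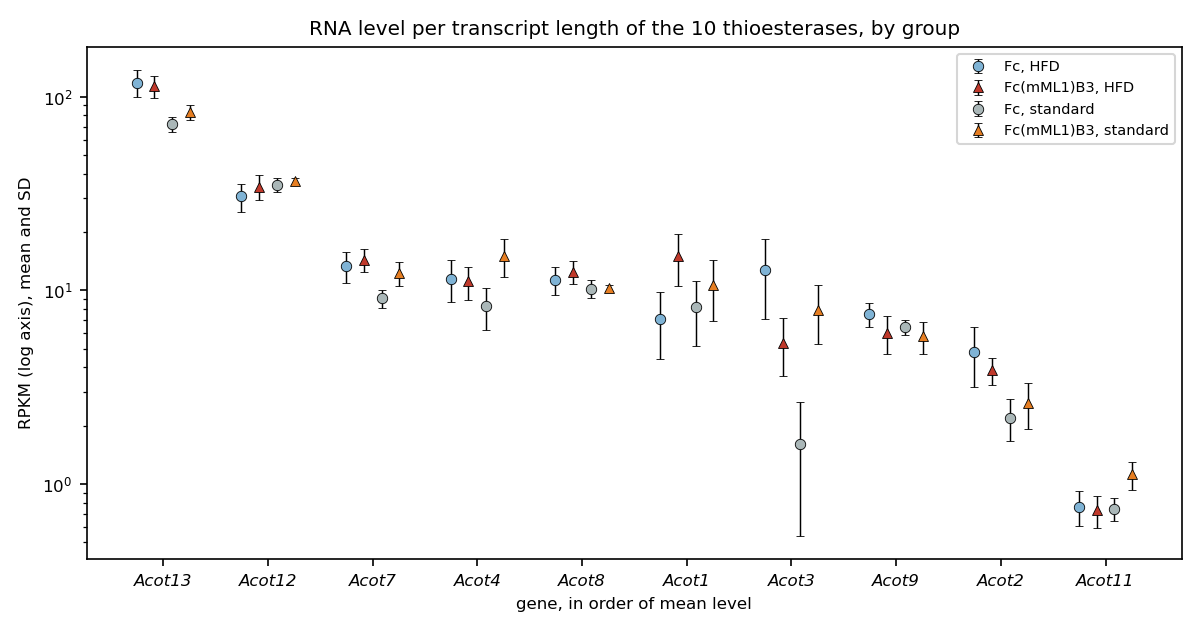
Mean RPKM (CPM per kilobase of exonic sequence, log axis) with SD of the 10 thioesterases in the 4 groups, genes ordered by mean level. Acot13 and Acot12 sit above the others in every group, and Acot3 in Fc mice on the standard diet, at 1.60 RPKM, falls far below its other 3 groups.

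Under the HFD, Acot1 rose and Acot3 fell in Fc(mML1)B3 mice, and no other member passed the test. Acot1, the cytosolic type I enzyme (chromosome 12, 84009502 to 84017669, + strand), was at 5.89 CPM in the lowest Fc mouse, 11 at the median and 18.6 in the highest. In Fc(mML1)B3 mice it was at 11.6, 23.1 and 34.7 CPM. All 10 Fc(mML1)B3 mice lay above the Fc median and 8 lay above every Fc mouse, while the groups overlapped through the other 2. The mean went from 11.1 ± 4.2 to 23.3 ± 7.05 CPM (SD, n = 10 each), a 2.11-fold increase (1.07 on the log2 scale with a standard error of 0.21, edgeR adjusted p = 0.00108).

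Acot3, a peroxisomal type I enzyme for long-chain acyl-CoA (chromosome 12, 84052151 to 84059564, + strand), moved the other way. It was at 15.4, 31.4 and 65.2 CPM (lowest, median, highest) in Fc mice and at 5.99, 13.5 and 20.4 CPM in Fc(mML1)B3 mice. Every one of the 10 treated mice was under the Fc median, and 7 were under all Fc mice, so that the groups overlapped in part. The mean went from 33.1 ± 14.7 to 13.9 ± 4.63 CPM (SD, n = 10 each), a log2 change of -1.26 with a standard error of 0.23 (edgeR adjusted p = 0.000695). A permutation test of the mean log2 CPM with 100000 resamples, 2-sided, gave p = 0.00036 for Acot1 and p = 0.00022 for Acot3, among 20 such tests over the members and diets.

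So 1 of 10 members was higher and 1 lower, where 14.8% of the 13299 tested genes were called, 8.14% higher and 6.68% lower. With upper-quartile in place of TMM scaling, 44.6% and not 54.9% of all calls were higher. Without Fc(mML1)B3 mouse 5, 1402 genes were called higher and 1446 lower, against 1083 and 889 with it. The median log2 fold change of the members was -0.05 and that of all tested genes -0.01. Among members that were not called, Acot9 came nearest, with 11.6 ± 1.59 CPM in Fc mice and 9.31 ± 2.04 in Fc(mML1)B3 mice (log2 fold change -0.31, standard error (SE) 0.12, edgeR adjusted p = 0.0735). Acot9 was called lower with limma-voom (adjusted p = 0.0340), in the fit of all 36 libraries (adjusted p = 0.0245) and without Fc(mML1)B3 mouse 5 (adjusted p = 0.0265). The 95% interval of the log2 fold change was -0.64 to 0.02 for Acot2, -0.35 to 0.23 for Acot4 and -0.25 to 0.14 for Acot13, and no difference was detectable for them.

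The circadian clock genes moved strongly with the protein in these mice. The log2 CPM of Arntl, which encodes BMAL1, minus that of Dbp, a clock output factor, was -7.51 to -5.07 in Fc mice and -1.90 to 3.09 in Fc(mML1)B3 mice, without overlap. With this difference as a covariate, edgeR called 0 of the 13299 genes, 0 members had an unadjusted p under 0.05, the log2 fold change of Acot1 was 0.12 and that of Acot3 -1.43 (adjusted p = 0.968 and 0.609). DESeq2 without the covariate called both. The clock difference and the protein thus cannot be told apart under the HFD. Against the same 10 Fc mice, the log2 fold change of Acot1 was 1.17 with the Fc(mML1)B3 libraries of mice 1 to 4 and 1.02 with those of mice 5 to 10, which belong to different runs of S numbers (adjusted p = 0.0161 and 0.00688). That of Acot3 was -1.01 and -1.44 (adjusted p = 0.0566 and 0.00297), and only the second passed the threshold.

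**Figure D2:**
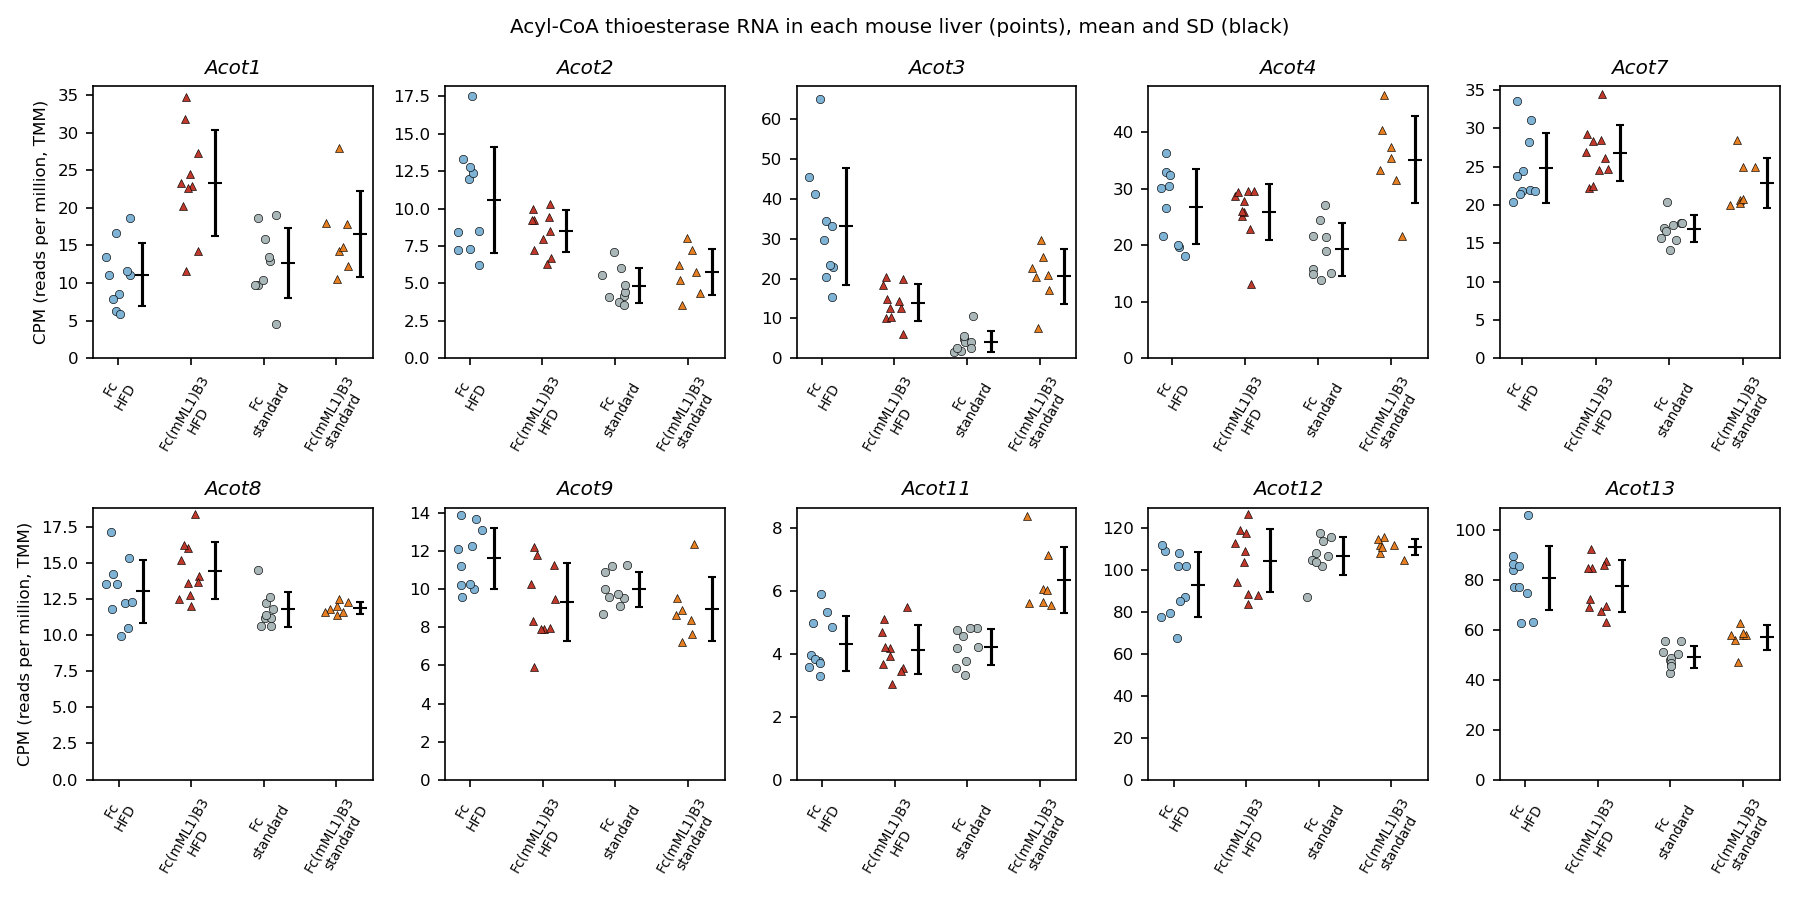
CPM of each thioesterase in every mouse (points; circles Fc, triangles Fc(mML1)B3), with mean and SD in black, each panel with its own axis from 0. Acot1 is high and Acot3 low in Fc(mML1)B3 mice under the HFD, and on the standard diet Acot3, Acot4 and Acot11 are high in Fc(mML1)B3 mice.

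On the standard diet, 5 of 10 members rose in Fc(mML1)B3 mice, and none fell: Acot3, Acot4, Acot7, Acot11 and Acot13. Of the 13570 genes tested, 16.1% were called, 8.56% higher and 7.55% lower, and the median log2 fold change was 0.31 over the members and -0.01 over all genes. No member had a negative log2 fold change with an unadjusted p under 0.05 (0 by edgeR), and DESeq2 also called 0 lower.

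Acot3 moved most. It was at 1.60, 3.97 and 10.5 CPM (lowest, median, highest) in Fc mice and at 7.62, 21.0 and 29.6 CPM in Fc(mML1)B3 mice. All 7 Fc(mML1)B3 mice lay above the Fc median and 6 above every Fc mouse; mouse 1, at 7.62 CPM, lay inside the Fc range. The mean went from 4.16 ± 2.74 (SD, n = 9) to 20.5 ± 6.91 CPM (SD, n = 7), a 4.86-fold increase (log2 fold change 2.28, SE 0.30, edgeR adjusted p = 3.63e-05, number 125 of all genes by p). Its lowest library held 30 Acot3 reads.

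Acot4 (chromosome 12, 84038379 to 84044723, + strand), the peroxisomal enzyme that also accepts succinyl-CoA, was at 13.9, 19.0 and 27.1 CPM in Fc mice. In Fc(mML1)B3 mice it was at 21.7, 35.4 and 46.5 CPM, and 6 of 7 lay above every Fc mouse. The mean went from 19.2 ± 4.69 (SD, n = 9) to 35.2 ± 7.75 CPM (SD, n = 7), with a log2 fold change of 0.87 (SE 0.15, edgeR adjusted p = 0.000442). The other cluster members gave log2 fold changes of 0.37 for Acot1 (95% interval -0.10 to 0.85, adjusted p = 0.289) and 0.25 for Acot2 (-0.10 to 0.60, adjusted p = 0.337).

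The type II enzymes Acot7, Acot11 and Acot13 also rose. Acot11 (chromosome 4, 106744561 to 106799831, - strand) was the only member whose groups did not overlap, at 3.32, 4.21 and 4.84 CPM in Fc mice and 5.57, 6.03 and 8.40 CPM in Fc(mML1)B3 mice. Groups without overlap were found for 2.90% of all genes tested, 239 higher and 155 lower. Its log2 fold change was 0.58 (SE 0.11, edgeR adjusted p = 0.00108), and the exact permutation test gave p = 0.000175, the smallest that 7 mice against 9 allow. Of its 5668 exonic bases, 1263 overlap the gene Fam151a, and reads there were not counted for either gene. Acot7 (chromosome 4, 152178100 to 152271855, + strand), a cytosolic enzyme best known from brain, rose from 16.9 ± 1.78 (SD, n = 9) to 22.9 ± 3.28 CPM (SD, n = 7), with 5 of 7 mice above every Fc mouse (log2 fold change 0.44, SE 0.08, edgeR adjusted p = 0.00111).

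Acot13 (chromosome 13, 24817955 to 24831489, - strand) had the smallest change that was called. It was at 42.8, 48.7 and 55.8 CPM in Fc mice and 47.1, 58.1 and 62.8 CPM in Fc(mML1)B3 mice, where 6 of 7 lay above every Fc mouse (log2 fold change 0.21, SE 0.06, edgeR adjusted p = 0.0243). This call was lost without Fc mouse 9 (adjusted p = 0.0509) or Fc(mML1)B3 mouse 4 (adjusted p = 0.0609), in the fit of all 36 libraries (adjusted p = 0.164) and among the libraries of 1 run of S numbers (adjusted p = 0.296). Acot8, a peroxisomal type II enzyme of broad substrate range (chromosome 2), was at 11.8 ± 1.22 (SD, n = 9) and 11.9 ± 0.388 CPM (SD, n = 7). Its log2 fold change of 0.01 had a 95% interval of -0.13 to 0.14. For Acot12 (chromosome 13) the interval was -0.05 to 0.16 around 0.05.

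In this experiment Fc mice 6 to 9 and all Fc(mML1)B3 mice belong to the same run of S numbers. Within it, the log2 fold change was 1.84 for Acot3 (adjusted p = 0.00624), 0.78 for Acot4 (adjusted p = 0.0194), 0.44 for Acot7 (adjusted p = 0.0162) and 0.53 for Acot11 (adjusted p = 0.0318, all from edgeR). These 4 passed the threshold within the run as they did over all libraries. The Arntl minus Dbp difference was -5.29 to -2.47 in Fc mice and -6.59 to -3.99 in Fc(mML1)B3 mice, with overlap. With it as a covariate, the log2 fold changes were 2.38 for Acot3, 0.99 for Acot4, 0.54 for Acot7 and 0.58 for Acot11, again all called (adjusted p at most 0.00848). Acot13 was not called with it (log2 fold change 0.20, adjusted p = 0.0916).

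**Figure D3:**
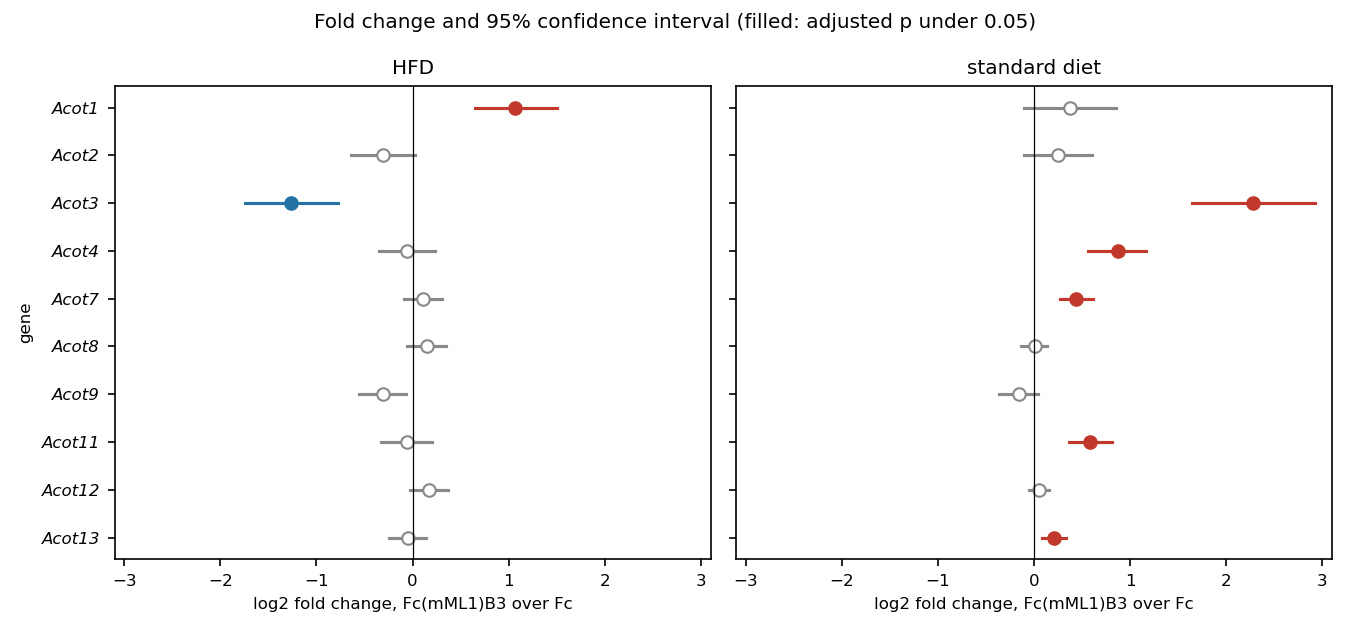
Log2 fold change of Fc(mML1)B3 over Fc with its 95% confidence interval for the 10 members under each diet, filled where the adjusted p from edgeR was under 0.05 (red higher, blue lower). Acot3 stands at -1.26 under the HFD and at 2.28 on the standard diet, and the 5 filled genes of the standard diet all lie above 0.

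The difference between the diets was tested directly with an interaction term over all 36 libraries, where the value is the log2 fold change on the standard diet minus that under the HFD. Acot3, Acot4 and Acot11 were called, 3 of 10 members and all positive, against 9.06% of the 14105 genes tested (4.66% positive and 4.4% negative). The Acot3 interaction of 3.55 on the log2 scale (SE 0.40, edgeR adjusted p = 5.86e-08) was number 23 of all genes by p. The clock gene Arntl had an interaction of -5.02 (adjusted p = 1.48e-10), and its part in the thioesterase interactions was not tested. For Acot4 the value was 0.94 (SE 0.21, edgeR adjusted p = 0.00287) and for Acot11 0.67 (SE 0.17, edgeR adjusted p = 0.00945). Acot1, which passed the test under the HFD and not under the standard diet, had an interaction of -0.69 with an adjusted p of 0.213, so that its response was not shown to differ between the diets. The same holds for Acot7 (0.34, adjusted p = 0.0977) and Acot13 (0.28, adjusted p = 0.143).

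The makeup of the chromosome 12 cluster's RNA was described as shares of its summed level. Under the HFD the summed RPKM of Acot1, Acot2, Acot3 and Acot4 was 36.2 ± 10.0 in Fc mice and 35.3 ± 8.30 in Fc(mML1)B3 mice (SD, n = 10 each). Acot3 held 26.4% to 44.9% of that sum in Fc mice and 11% to 17.8% in Fc(mML1)B3 mice, and Acot1 held 13.2% to 27.5% and 33.2% to 47.2%. Neither share overlapped between the groups, while the share of Acot4 was 32.6% ± 6.22 and 31.8% ± 2.81.

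On the standard diet, the sum was 20.2 ± 6.13 RPKM in Fc mice (SD, n = 9) and 36.3 ± 9.60 in Fc(mML1)B3 mice (SD, n = 7). Acot3 then held 3.95% to 13.4% in Fc mice and 13.5% to 24.5% in Fc(mML1)B3 mice. Acot1 held 39.5% ± 6.11 and 29.1% ± 4.57, with overlapping ranges, and Acot4 41.7% ± 4.51 and 42.1% ± 3.07. The log2 ratio of Acot1 to Acot3 was -1.40 to -0.11 in Fc mice and 0.90 to 2.02 in Fc(mML1)B3 mice under the HFD (permutation test with 100000 resamples, 2-sided, p = 2e-05, the smallest these can give). Under the standard diet it was 1.54 to 3.35 and 0.02 to 1.42 (exact permutation test, 2-sided, p = 0.000175, the smallest the design allows). The ratio did not overlap between proteins under either diet and turned in opposite directions. It was 1 of 2 ratios tested in both diets, and both ratios were chosen after the values were seen. The other, Acot3 to Acot4, differed by -1.17 on the log2 scale under the HFD (permutation p = 4e-05) and by 1.57 under the standard diet (exact permutation p = 0.00035). Both ratios hold Acot3, which was called under each diet, so that their p-values are no separate support. How often shares or ratios of other genes do not overlap was not counted.

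**Figure D4:**
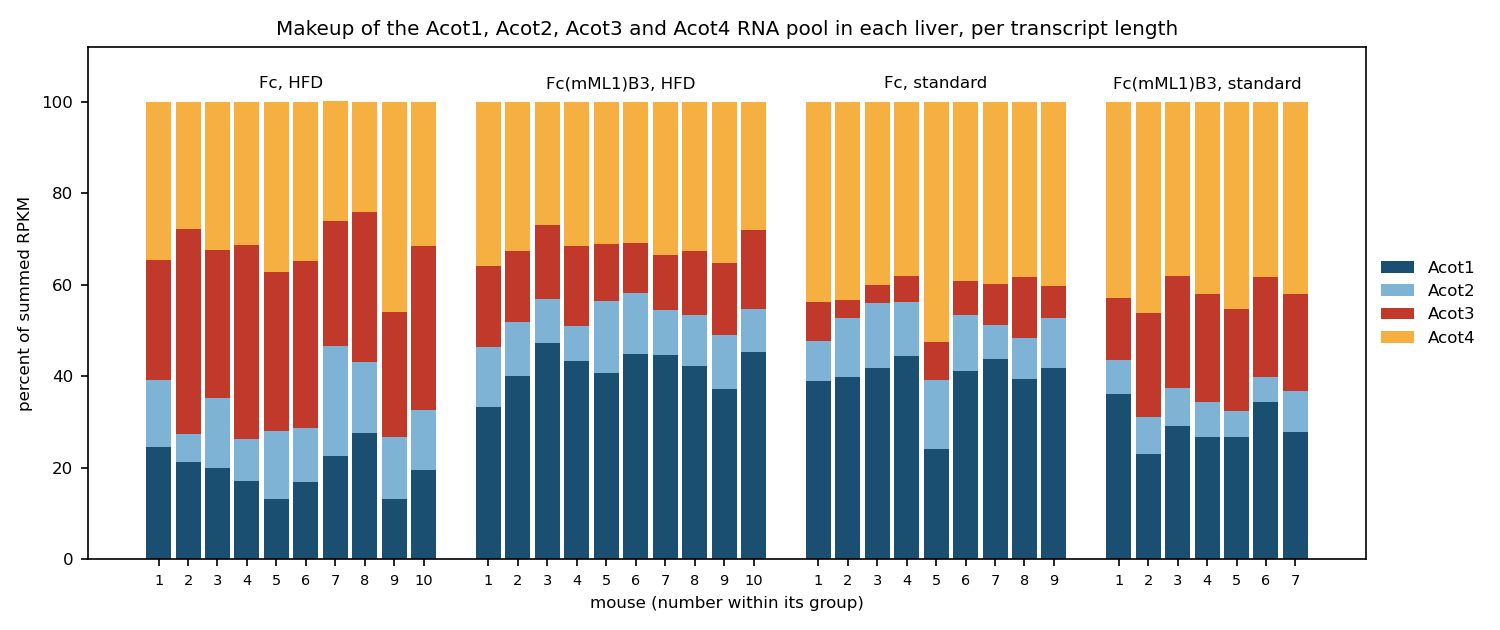
Share of Acot1, Acot2, Acot3 and Acot4 in their summed RPKM in each of the 36 mice, stacked to 100%, mice numbered within their group. The Acot3 share is 26.4% or more in every Fc mouse under the HFD and 17.8% or less in every Fc(mML1)B3 mouse there, and lowest in Fc mice on the standard diet, at 13.4% or less.

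The Fc groups of the 2 experiments were also compared, standard diet against HFD. Acot2, Acot3, Acot4, Acot7 and Acot13 were lower and Acot12 was higher on the standard diet, 5 and 1 of 10 members, where 47.9% of the 14105 genes were called, 24.6% lower and 23.3% higher. Of all calls 48.6% were higher, and 34.5% with upper-quartile scaling. Acot3 was at 15.4 to 65.2 CPM in Fc mice on the HFD and 1.60 to 10.5 CPM on the standard diet, without overlap (log2 fold change -2.99, SE 0.29, edgeR adjusted p = 2.49e-10). Acot7 and Acot13 also did not overlap, against 9.61% of all genes, of which 1110 were higher and 246 lower on the standard diet. Their log2 fold changes were -0.57 and -0.72 (adjusted p = 3.32e-06 and 3.08e-09).

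Acot2, the mitochondrial type I enzyme (chromosome 12, 83987861 to 83993875, + strand), was at 10.6 ± 3.58 CPM on the HFD and 4.85 ± 1.18 on the standard diet (log2 fold change -1.13, SE 0.17, edgeR adjusted p = 9.35e-07). It did not pass the test between the proteins under either diet. Acot12 was called higher by a narrow margin (log2 fold change 0.19, adjusted p = 0.0466), and this call was lost in 14 of the 36 fits that left out 1 library and with DESeq2 (adjusted p = 0.0555). For Acot3, the level in Fc(mML1)B3 mice was 13.9 CPM under the HFD and 20.5 CPM under the standard diet, so that the Fc groups, at 33.1 and 4.16 CPM, stood further apart than the Fc(mML1)B3 groups.

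Members were also compared between mice of the same group. After each group's mean was removed, the log2 CPM of Acot3 and Acot4, neighbours in the cluster, had a Pearson r of 0.84 over the 36 mice, and of 0.80 and 0.89 within the HFD and standard diet experiments. Acot1 and Acot3 had r = 0.69 and Acot1 and Acot4 r = 0.63, so that mice high in Acot1 for their group tended to be high in Acot3, although the group means of the 2 genes moved apart under the HFD. Among the type II members, Acot8 and Acot13 had r = 0.69 (0.75 in the HFD mice and 0.41 in the standard diet mice), and the lowest value was -0.43 for Acot9 and Acot12 (-0.55 and 0.05). The 36 points share library depth, scaling and the cluster's shared sequence, so that these values are descriptions.

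**Figure D5:**
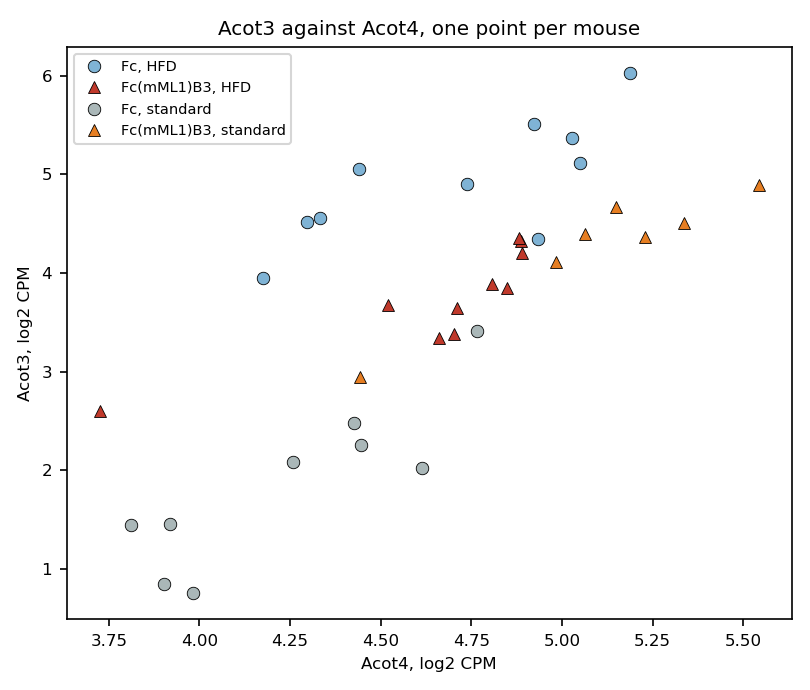
Acot3 against Acot4, both in log2 CPM, 1 point per mouse (circles Fc, triangles Fc(mML1)B3). The 2 genes rise together within each group, with r = 0.84 after the group means are removed. Acot3 per Acot4 in CPM was 1.21 on average in Fc mice and 0.53 in Fc(mML1)B3 mice under the HFD, and 0.203 and 0.57 on the standard diet, with overlap between some groups.

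Over 13190 other genes, those whose deviations were most like each member's were named by the same measure over the 36 mice. Acot1 was closest to Acaa1b, a peroxisomal thiolase, and Crat, carnitine acetyltransferase (r = 0.72 and 0.69). Acot4 was closest to Cyp4a10, a fatty acid hydroxylase, and Fmo1, a drug-oxidizing enzyme (r = 0.71 and 0.70), and Acot3 to Mgll, monoacylglycerol lipase, and Cda, cytidine deaminase (r = 0.69 and 0.68). Acot12 was closest to Decr2 and Phyh, both peroxisomal fatty acid enzymes (r = 0.85 each), and Acot13 to Gpx4, a glutathione peroxidase, and Atox1, a copper chaperone (r = 0.88 and 0.87). Acot8 was closest to Hint2 and Ap2s1 (r = 0.79 each), Acot7 to Qdpr and Slc29a1 (r = 0.76 each) and Acot2 to Cyp17a1 and 2010003K11Rik (r = 0.72 and 0.69). Some of these values differed between the experiments. Acot1 and Acaa1b had r = 0.61 in the HFD mice and 0.90 in the standard diet mice, and Acot1 and Crat 0.66 and 0.79. Acot2 and Cyp17a1 had r = 0.85 and 0.48, Acot2 and 2010003K11Rik 0.74 and 0.60, and Acot12 and Decr2 0.89 and 0.61. Acot8 and Hint2 had r = 0.86 and 0.31, Acot8 and Ap2s1 0.88 and 0.27, Acot7 and Qdpr 0.86 and 0.53, Acot7 and Slc29a1 0.88 and 0.48, and Acot12 and Phyh 0.91 and 0.46. For Acot9 these were Il7 and Tbc1d19 (r = 0.71 each, with 0.80 and 0.83 in the HFD mice and 0.46 and 0.40 in the standard diet mice). For Acot11 they were Palmd and Cenpb (r = 0.59 and 0.55, with 0.66 and 0.63 in the HFD mice and 0.43 and 0.30 in the standard diet mice).

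Genes of neighbouring steps were counted in fixed lists, to be read beside the 8.14% of all tested genes called higher and 6.68% lower under the HFD, and the 8.56% and 7.55% with the standard diet. Of 18 tested acyl-CoA synthetases, which make the substrate, 1 rose under the HFD: Acsl1, the main long-chain synthetase, with a log2 fold change of 0.80 (SE 0.14, edgeR adjusted p = 0.000472). In the standard diet experiment 2 of 19 rose, Acsl4 by 0.31 and Slc27a5, the bile acid CoA ligase, by 0.16. Of 11 other thioesterases and CoA ester hydrolases, Baat, which conjugates bile acids and is a relative of the type I enzymes, rose by 0.36 under the HFD (adjusted p = 0.0177). With the standard diet, Nudt7, a peroxisomal CoA pyrophosphatase, rose by 0.45, Nudt19 by 0.26 and Lypla1, an acyl-protein thioesterase, by 0.17, while none of the 11 fell.

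PPARalpha and its targets other than the thioesterases formed a list of 22 tested genes. Under the HFD 3 of 22 rose and 0 fell: Plin5, a droplet protein, by 1.29, Pdk4 by 1.08 and Slc25a20, the carnitine carrier, by 0.44. In the standard diet experiment 0 rose and 1 fell, Plin2, whose log2 fold change was -0.46 (adjusted p = 3.02e-05). The median log2 fold changes were -0.11 and 0.02. Peroxisomal fatty acid oxidation had 4 of 17 higher and 1 lower under the HFD, with Hacl1 at 1.10 and Acox2 at 0.63, and 4 higher and 2 lower under the standard diet, with Crot at -0.79 and Acox2 at -0.46.

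Mitochondrial fatty acid oxidation had 1 of 19 higher under the HFD and 2 with the standard diet, Cpt1a at 0.26 and Acaa2 at 0.16, and none lower. In coenzyme A synthesis, Pank1 was at -0.30 under the HFD and Ppcs at 0.21 under the standard diet, 1 of 7 called each. Of 10 acyl-CoA and fatty acid binding genes, 1 was lower under the HFD (Fabp5, -0.54) and 2 under the standard diet (Fabp4, -0.30 and Acbd3, -0.20). The clock list had 6 of 17 genes higher and 8 lower under the HFD, and 8 of 18 higher and 5 lower under the standard diet, the largest shares called among the 8 pathway lists. Of the cell type markers, neither macrophage nor stellate, endothelial, cholangiocyte or lymphocyte genes were called under the HFD, while both tested neutrophil genes, S100a8 and S100a9, were lower and 1 of 7 hepatocyte genes, Hnf4a, was higher. The summed neutrophil level was 3.84 to 51.6 CPM in Fc and 3.38 to 9.15 CPM in Fc(mML1)B3 mice there. Under the standard diet 3 of 7 hepatocyte genes were higher, with sums of 109000 to 140000 and 117000 to 132000 CPM, and 1 macrophage gene of 7, 1 stellate gene of 6 and 1 cholangiocyte gene of 4 were lower. The macrophage sum was 724 to 1260 CPM in Fc and 728 to 1040 CPM in Fc(mML1)B3 mice. Their part in the thioesterase results was not tested.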

How the data were processed

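RNA was extracted from the liver of each mouse, and libraries made with a directional kit were sequenced in pairs. The deposited values are raw counts per gene. Per the labels and the methods, the authors trimmed reads with fastp, removed ribosomal RNA with Bowtie2 2.4.5, aligned to mm10 with STAR 2.7.10a and counted with featureCounts (Subread 2.0.3). Both ends had to align, each end counted as a read, strand was ignored, and reads with several alignments or on several genes were left out. The deposited gene lengths (unit: other, bases) gave RPKM. All 36 libraries were grouped by title.

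From these counts, each diet was tested with edgeR 4.0.16 in R 4.3.3 (quasi-likelihood F-test, TMM, filterByExpr, Benjamini-Hochberg over all genes), and the interaction and the diet difference of Fc mice over all 36 libraries. Standard errors are the log2 fold change over the square root of F. The replicates are separate mice. The tests were tested on simulated data. Permutation tests used log2 CPM with a prior count of 2. Alternatives were DESeq2, limma-voom, other filters, scalings, thresholds and library subsets, leaving out single libraries, a block for the replicate number and a covariate for the clock. The members, lists and rule for named genes (the members, the 2 genes most like each, and up to 4 genes of each list by p) were chosen with earlier results of these data known.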

Additional observations from a re-analysis of the deposited data

Results flagged for a closer look

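In 5 of 40 combinations of a member and a group, 1 mouse lay far from the rest by Dixon's 95% limit on log2 CPM, where chance gives about 1 in 20. The values below are in CPM, to which the limit was not applied. Acot3 in Fc(mML1)B3 mouse 1 on the standard diet was at 7.62 CPM, with the other 6 mice at 17.2 to 29.6, and Acot13 in the same mouse was at 47.1 CPM, with the others at 56.1 to 62.8. Acot1 in Fc mouse 5 on the standard diet was at 4.6 CPM, with the others at 9.67 to 19.0. Acot12 in Fc mouse 2 of that diet was at 87.3 CPM, with the others at 102 to 118. Acot4 in Fc(mML1)B3 mouse 5 on the HFD was at 13.1 CPM, with the others at 22.8 to 29.6.

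The response to Fc(mML1)B3 differed between the diets by the interaction test for Acot3 (3.55 on the log2 scale), Acot4 (0.94) and Acot11 (0.67). These 3 passed the threshold with each of the 36 libraries left out in turn. The diets were separate experiments with different dosing schedules, which cannot be told apart from the diet.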

How the results depend on the processing

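Over the members' log2 fold changes, 344 of 370 values under other settings kept their direction and their side of the threshold, 15 fell short of it, 4 newly passed and 7 changed sign. With 1 library left out, 1049 of 1080 did so. Under the HFD, the clock covariate gave 0 members higher and 0 lower, the Fc(mML1)B3 libraries of mice 1 to 4 alone gave 0 lower, and limma-voom and the fit of all 36 libraries gave 2 lower each (Acot3 and Acot9). Under the standard diet, an added limit of a 1.5-fold change (under the HFD, a 2-fold change at an adjusted p under 0.1) left 2 members higher, Acot3 and Acot4, of which Acot4 was 1.82-fold higher and so under a 2-fold limit. The call of Acot12 between the Fc groups was lost, leaving 0 higher, with DESeq2, upper-quartile scaling, no filter, counts divided by 2 and the replicate block. Upper-quartile scaling also called Acot8 (-0.24, adjusted p = 0.0169) and Acot9 (-0.31, adjusted p = 0.0216) lower there, 7 members in all. Signs changed only for members that were not called. Under the HFD these were Acot4 (0.04, mice 1 to 4), Acot11 (0.37, clock covariate) and Acot13 (0.13, clock covariate, and 0.09, mice 1 to 4). On the standard diet it was Acot8 (0.00 with upper-quartile scaling, -0.01 with the clock covariate, -0.05 within 1 run of S numbers).

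With each library left out, members called were 1 to 1 higher and 1 to 2 lower under the HFD, 4 to 5 higher and 0 to 1 lower under the standard diet (Acot9 lower at -0.25, adjusted p = 0.0438, without Fc(mML1)B3 mouse 4), 3 to 3 by interaction, and 0 to 1 higher and 5 to 6 lower between Fc groups. Log2 fold changes that changed sign ranged from -0.11 to 0.02 for Acot4 and -0.09 to 0.01 for Acot13 under the HFD, -0.01 to 0.05 for Acot8 under the standard diet, and -0.08 to 0.03 for Acot11 between Fc groups.

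Replicate numbers did not pair the mice. Same-numbered mice correlated at -0.67 to 0.32 under the HFD and -0.19 to -0.02 under the standard diet, and 1 of 10 and 0 of 7 correlated best with their own number. The replicate block gave 1 member higher and 1 lower under the HFD, 4 higher (Acot13 at 0.22, adjusted p = 0.0521) and 0 lower under the standard diet, 3 by interaction, and 0 higher and 5 lower between Fc groups.

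Over all genes, the calls higher and lower under the HFD were 1083 and 889. They were 1643 and 1396 with limma-voom, 1542 and 1591 with all 36 libraries in 1 fit, 731 and 563 with the replicate block, 88 and 90 at these fold limits, 0 and 0 with the clock covariate, 413 and 292 with Fc(mML1)B3 mice 1 to 4, and 1402 and 1446 without Fc(mML1)B3 mouse 5 (49.2% of calls higher against 54.9%). On the standard diet they were 1162 and 1024. They were 459 and 326 with all 36 libraries, 713 and 583 with the block, 178 lower at these fold limits, where 44.4% of the calls were higher, 857 and 676 with the clock covariate, and 518 and 424 within 1 run of S numbers. For the interaction they were 657 and 621, and 1015 and 1011 with limma-voom. The cause of these changes was not tested. Acot11, at 41 to 200 reads per library, had the fewest reads in all of the members, and RPKM of Acot1, Acot2 and Acot3 leaves out reads shared within the cluster.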

Other observations

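The spread between mice differed among members on the same scale. Acot8 in Fc(mML1)B3 mice on the standard diet was at 11.4 to 12.5 CPM, while Acot3 in the same mice was at 7.62 to 29.6 CPM. Acot6, the cluster gene furthest from Acot2, was tested and not called, with log2 fold changes of -0.71 under the HFD (adjusted p = 0.135) and 0.07 under the standard diet (adjusted p = 0.906, both from edgeR).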
